A study of Mus musculus with 12 samples.

Results

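The genes described here are 10 mouse enzymes and enzyme subunits of sphingolipid metabolism, among 22180 genes with a probe set annotated to a single symbol. They are Sptlc1, Sptlc2 and Sptlc3 (serine palmitoyltransferase), Cers5 and Cers6 (ceramide synthases), Sphk1 and Sphk2 (sphingosine kinases), Sgpp1 and Sgpp2 (sphingosine 1-phosphate phosphatases) and Sgpl1 (sphingosine 1-phosphate lyase). A probe set was taken where the platform annotation gave it exactly 1 of these symbols, and the one with the highest mean over the 12 arrays stood for its gene. All 10 genes had such a probe set, 11 in all, since Sgpp1 had 2. The set was chosen on measured values of these same arrays and takes its name from Sptlc3 and Sgpp2, whose differences between the groups were already known. The levels of those 2 genes are therefore given as a description, with no test. For the other 8, tests come from a fit to all 41345 probe sets. How these 8 were picked is not recorded in the sources used here, so their p-values below may not be independent of that choice.

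Expression was measured on Affymetrix MoGene 2.0 ST arrays in mouse embryonic stem (ES) cells of the line K3, in 3 groups of 4 arrays, each from 2 clones with 2 arrays per clone. KO/ERRb-wt cells (clones 12-1 and 12-3) carried a knockout of the ERRb gene and a lentivirus expressing ERRb, KO/mock cells (clones 8-3 and 8-4) carried the knockout and a mock treatment, and WT/mock cells (clones 5-2 and 5-5) had the intact gene and a mock treatment. No source used here says what the mock treatment held. All groups were grown in N2B27 medium with CH99021, an inhibitor of GSK3, PD0325901, an inhibitor of MEK, and LIF, and then spent 3 days in N2B27 with both inhibitors and doxycycline. A group rests on 2 clones, so whatever sets those clones apart is part of any difference between groups.

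Esrrb, which encodes the orphan nuclear receptor ERRb, was read first as a check of the labels. Its probe set gave log2 values of 6.73 ± 0.21 on the arrays labelled KO/ERRb-wt, 7.66 ± 0.27 on those labelled KO/mock and 7.38 ± 0.0041 on those labelled WT/mock (SD, n = 4 each). The knockout arrays were thus not lower than the wild-type ones, and the arrays meant to express ERRb again were the lowest, by -0.93 ± 0.13 against KO/mock (SE; limma, adjusted p = 0.00436) and -0.65 ± 0.13 against WT/mock (limma, adjusted p = 0.00557). No source used here says which part of the gene was deleted or which part the virus carried, so this probe set may check neither. Every group below is named by its label, and every direction is a difference between arrays so labelled. Of 10 ES cell markers, 9 read above 8 on all 12 arrays. Dppa5a read 4.71 to 5.24. The mean of the 10 was 9.86 to 9.91 on KO/ERRb-wt arrays, 9.97 to 10.00 on KO/mock arrays and 10.02 to 10.09 on WT/mock arrays, with 4 of the 10 called lower on KO/ERRb-wt arrays against KO/mock and 4 against WT/mock, and Klf4 called lower on KO/mock arrays against WT/mock. The 4 measured markers of primed epiblast averaged 6.71 to 6.97, 6.45 to 6.68 and 6.26 to 6.48 in the same order of groups, of which Dnmt3b was called higher in each comparison. The 7 fibroblast feeder markers averaged 4.93 to 5.01 on KO/ERRb-wt arrays, 4.82 to 4.92 on KO/mock arrays and 4.78 to 4.91 on WT/mock arrays. In the same order the 6 primitive endoderm markers averaged 5.24 to 5.32, 5.12 to 5.21 and 5.31 to 5.36, the 6 trophoblast markers 5.56 to 5.69, 5.48 to 5.61 and 5.26 to 5.56, and the 4 neuroectoderm markers 4.97 to 5.16, 5.00 to 5.18 and 4.99 to 5.28. Of primitive endoderm markers 1 was called lower on KO/mock arrays against WT/mock, 1 higher on KO/ERRb-wt arrays against KO/mock and 1 lower on KO/ERRb-wt arrays against WT/mock. Of neuroectoderm markers 1 was called lower on KO/mock and 1 on KO/ERRb-wt arrays against WT/mock, and 1 feeder and 1 trophoblast marker were called higher on KO/ERRb-wt arrays against WT/mock. The part of these shifts in the differences below was not tested.

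Sphingolipids are built on a long-chain base. Serine palmitoyltransferase makes the first intermediate from serine and an acyl-CoA, working as a complex of Sptlc1 with Sptlc2 or Sptlc3, and Sptlc3 is known in human cells and mouse tissues for widening the range of chain lengths. Ceramide synthases then attach a fatty acid to give, after desaturation, ceramide, the common precursor of sphingomyelin and glycosphingolipids. Sphingosine released from ceramide is phosphorylated by sphingosine kinases to sphingosine 1-phosphate (S1P), a signalling lipid, which the phosphatases Sgpp1 and Sgpp2 return to sphingosine and the lyase Sgpl1 destroys for good.

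The promoters of Sptlc3, Sgpp2 and Sptlc2 are printed because the first pair are the members whose levels differed most between the groups, and Sptlc2 is the paralogue of Sptlc3, with overlapping values in all groups. Each line gives the 250 bases before the gene's start from the RefSeq annotation, build GRCm38.p6, 5′ to 3′ on the gene's strand, with every CpG dinucleotide in capitals. No source used here names the build of the probe set annotation, so these coordinates place the promoters and not the probe sets. The Sptlc3 promoter lies at chr2:139493663-139493912 on the plus strand, that of Sgpp2 at chr1:78310096-78310345 on the plus strand, and that of Sptlc2 at chr12:87388356-87388605 on the minus strand.
Sptlc3: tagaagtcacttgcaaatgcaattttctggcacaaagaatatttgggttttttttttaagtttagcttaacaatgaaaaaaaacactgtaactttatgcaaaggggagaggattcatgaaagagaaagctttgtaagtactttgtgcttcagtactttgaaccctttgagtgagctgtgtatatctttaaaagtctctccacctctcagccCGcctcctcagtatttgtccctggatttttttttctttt
Sgpp2: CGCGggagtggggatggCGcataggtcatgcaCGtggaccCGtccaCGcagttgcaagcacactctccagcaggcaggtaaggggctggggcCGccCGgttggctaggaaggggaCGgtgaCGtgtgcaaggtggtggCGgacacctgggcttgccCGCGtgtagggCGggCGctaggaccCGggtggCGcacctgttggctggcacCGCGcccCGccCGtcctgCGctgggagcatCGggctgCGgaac
Sptlc2: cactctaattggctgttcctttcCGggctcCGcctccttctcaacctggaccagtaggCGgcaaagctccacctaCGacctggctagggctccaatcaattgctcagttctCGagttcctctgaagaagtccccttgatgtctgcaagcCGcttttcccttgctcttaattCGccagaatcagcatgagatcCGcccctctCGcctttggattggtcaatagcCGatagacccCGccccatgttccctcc

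The Sptlc3 promoter held 1 CpG and 35.6% G and C in these 250 bases, against 24 CpGs and 70.8% for Sgpp2 and 11 CpGs and 55.2% for Sptlc2. In the full window of the RefSeq table, 300 bases reaching 50 past the start, Sptlc3 had 37.3% G and C and 1 CpG, and 14.1% of all 32851 promoters had as few CpGs. The median promoter had 7. The other 9 genes had 14 promoters listed, 5 of them for Sphk1, with 6 to 38 CpGs. Sgpp2, with 34, had as many CpGs as or more than 93.0% of all promoters. Sptlc3 thus had the fewest CpGs of the members, while Sgpp2 was among those with the most, after Sgpl1 with 38 and Sgpp1 with 36. The ERR core motif AAGGTCA, searched on both strands, was in 0 of the members' 15 promoters and in 4.72% of all promoters. Its extended form TCAAGGTCA, which contains the core motif, was in 0 of the 15 and in 0.423% of all. These letters are absent from the windows searched, and nothing is said of sites elsewhere.

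**Figure D1:**
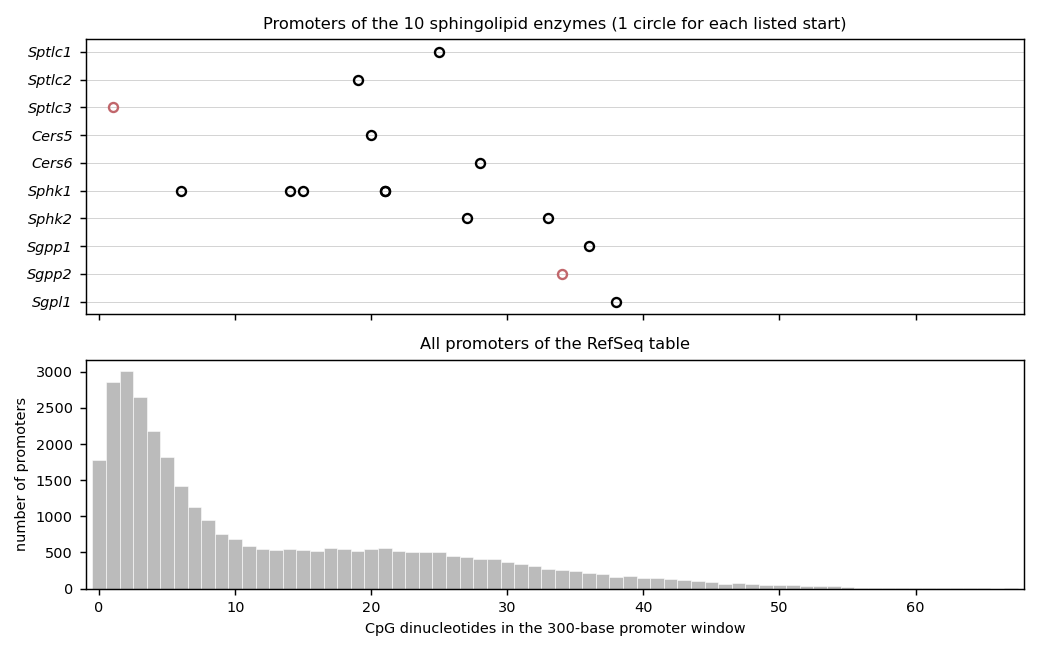
CpG dinucleotides in the 300-base promoter window of each member (upper panel, 1 circle for each listed start, Sptlc3 and Sgpp2 in red; 2 starts of Sphk1 coincide at 21) and in all 32851 promoters (lower panel, number of promoters). Sptlc3 stands at 1 CpG and Sgpp2 at 34, and the median of all promoters is 7.

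Of the serine palmitoyltransferase genes, Sptlc3 stood apart on the WT/mock arrays. This gene, on chromosome 2, read 6.29, 6.41, 6.09 and 6.25 on the arrays labelled KO/ERRb-wt. On those labelled KO/mock it read 6.34, 6.22, 6.03 and 6.16, and on those labelled WT/mock 4.80, 5.13, 4.83 and 5.20. The KO/ERRb-wt and KO/mock arrays overlapped, and all 8 of them lay above all 4 WT/mock arrays. The lowest KO/mock array stood 0.83 above the highest WT/mock array on the log2 scale, and the lowest KO/ERRb-wt array 0.89 above it. The difference from WT/mock was 1.19 ± 0.11 (SE) for KO/mock, a ratio of 2.29, and 1.27 ± 0.11 for KO/ERRb-wt, a ratio of 2.41. Both differences use the same WT/mock arrays. KO/ERRb-wt minus KO/mock was 0.08 ± 0.11, smaller than its error. Arrays of bulk RNA cannot tell more cells that express a gene from more RNA per cell.

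Clones of one label differed little beside this. Clone 12-3 minus clone 12-1 was -0.18 ± 0.15 for Sptlc3, clone 8-4 minus clone 8-3 was -0.18 ± 0.15, and clone 5-5 minus clone 5-2 was 0.05 ± 0.15 (SE, 2 arrays each). Sptlc3 read above 45.8% to 52.7% of all probe sets on the WT/mock arrays and above 64.7% to 69.0% on the other 8. No detection call came with the table, so whether the WT/mock values stand above background is not known, and a difference from a level near background understates the change.

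The partners of Sptlc3 did not pass the test in any comparison. Sptlc1, the subunit common to all forms of the enzyme, read 7.62 to 7.75 on KO/ERRb-wt arrays, 7.39 to 7.74 on KO/mock arrays and 7.28 to 7.63 on WT/mock arrays. All groups overlapped, and the KO/ERRb-wt minus WT/mock difference was 0.23 ± 0.09 (SE; limma, adjusted p = 0.132). Sptlc2, the more widely used catalytic subunit, read 10.51 to 10.68 over the 12 arrays. Its differences were -0.00 ± 0.06 for KO/ERRb-wt minus KO/mock and 0.05 ± 0.06 for KO/mock minus WT/mock. Sptlc2 is a neighbour of the targeted locus: in the RefSeq annotation it and Esrrb lie on chromosome 12 with 16 protein-coding genes between them. Sgpp1 is on the same chromosome, 119 protein-coding genes from Esrrb.

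**Figure D2:**
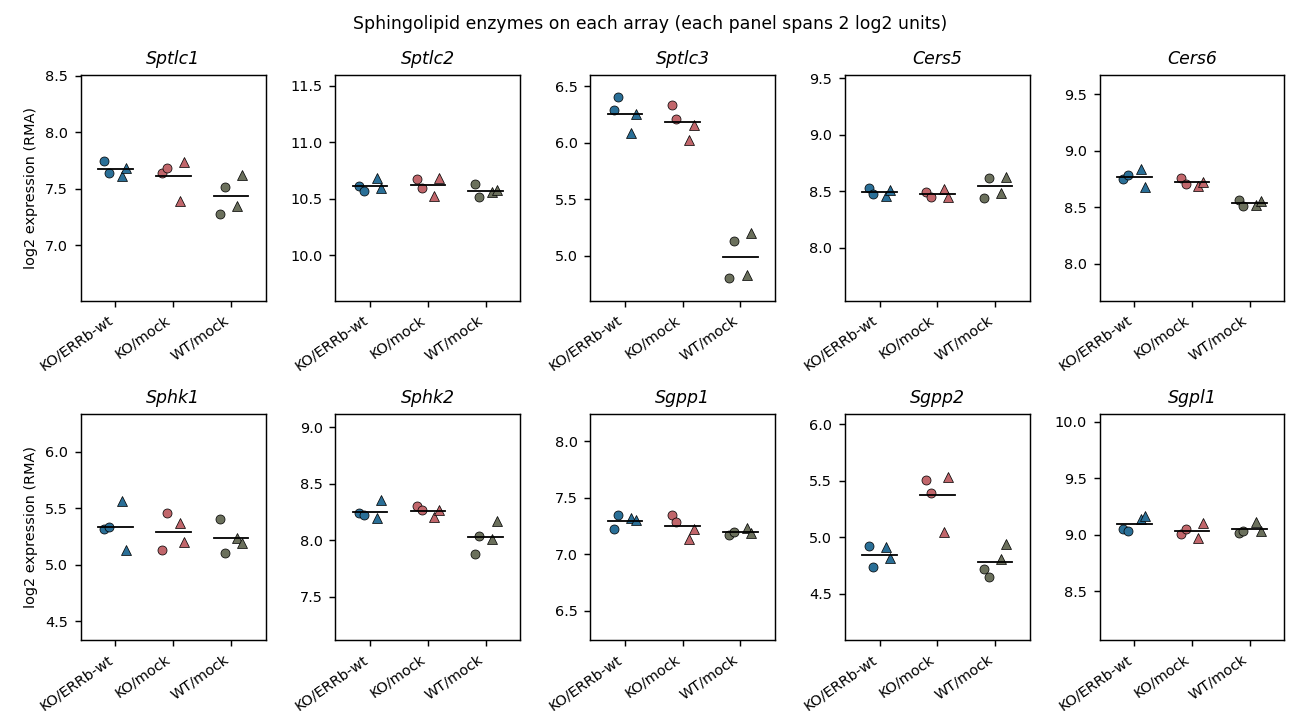
Log2 expression of each member on each array, by group (circles and triangles mark the 2 clones, bars the group mean, and every panel spans 2 log2 units). The 4 WT/mock arrays of Sptlc3 lie at 4.80 to 5.20, below all 8 others at 6.03 to 6.41, and the 4 KO/mock arrays of Sgpp2 lie at 5.05 to 5.53, above all others at 4.65 to 4.94.

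Of the ceramide synthase genes, Cers6 rose on KO/ERRb-wt arrays against WT/mock, and Cers5 did not pass in any comparison. Cers6, which in mammals makes mainly ceramides with a palmitoyl chain, read 8.75, 8.78, 8.84 and 8.68 on KO/ERRb-wt arrays. It read 8.76, 8.71, 8.69 and 8.72 on KO/mock arrays and 8.56, 8.51, 8.52 and 8.55 on WT/mock arrays. As for Sptlc3, all 8 arrays labelled knockout lay above the WT/mock arrays and overlapped each other, over a much narrower span. The share of all genes whose arrays separate in this way is not given here, so the separation does not mark out the members. The difference from WT/mock was 0.23 ± 0.05 for KO/ERRb-wt (SE; limma, adjusted p = 0.0119), a ratio of 1.17, and 0.18 ± 0.05 for KO/mock, which did not pass (limma, adjusted p = 0.0843). KO/ERRb-wt minus KO/mock was 0.04 ± 0.05 (limma, adjusted p = 0.708). The call against WT/mock held without any single array and ended without clone 12-1 or clone 5-2 and on clone averages, with adjusted p of 0.0598, 0.0703 and 0.12. The KO/mock difference passed with dim probe sets left out and with a trended robust prior (adjusted p = 0.0245 and 0.0269). Cers5, an enzyme of the same acyl-chain preference, read 8.44 to 8.62 over the 12 arrays and all groups overlapped.

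Of the sphingosine kinases, Sphk2, known as the form found in the nucleus and at internal membranes, read 8.24, 8.22, 8.20 and 8.36 on KO/ERRb-wt arrays. It read 8.30, 8.26, 8.20 and 8.27 on KO/mock arrays and 7.88, 8.04, 8.01 and 8.17 on WT/mock arrays. The 8 knockout arrays lay above the WT/mock arrays, but the gap to the highest of these was only 0.03. The difference from WT/mock was 0.23 ± 0.07 for KO/ERRb-wt (SE; limma, adjusted p = 0.0431) and 0.23 ± 0.07 for KO/mock (limma, adjusted p = 0.091). The call was fragile: it ended when any of 11 arrays was left out singly, all but WT/mock clone 5-5 replicate 2, with adjusted p up to 0.118, and over all alternatives adjusted p ran from 0.0149 to 0.243. The KO/mock difference passed without WT/mock clone 5-5 replicate 2 (adjusted p = 0.0341), with dim probe sets left out (0.0367) and with a trended robust prior (0.0472). Sphk1, the mainly cytosolic form, read 5.11 to 5.57 over the 12 arrays, with all groups overlapping and differences of 0.05 to 0.10.

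Among the genes that remove S1P, Sgpp2 was higher on the KO/mock arrays than on all others. This phosphatase gene, on chromosome 1, read 4.92, 4.73, 4.91 and 4.82 on the arrays labelled KO/ERRb-wt. It read 5.50, 5.39, 5.05 and 5.53 on those labelled KO/mock and 4.72, 4.65, 4.81 and 4.94 on those labelled WT/mock. All 4 KO/mock arrays lay above the other 8, which overlapped each other. Sgpp2 thus took a different course from Sptlc3: KO/mock minus WT/mock was 0.59 ± 0.11 (SE), KO/ERRb-wt minus KO/mock was -0.52 ± 0.11, and KO/ERRb-wt minus WT/mock was 0.07 ± 0.11. The first pair of differences share the KO/mock arrays. KO/mock clone 8-4 replicate 1, at 5.05, stood closest to the other groups, 0.11 above the highest WT/mock array and 0.13 above the highest KO/ERRb-wt array. Clone 8-4 minus clone 8-3 was -0.16 ± 0.15 and clone 5-5 minus clone 5-2 was 0.19 ± 0.15. The Sgpp2 level is low, above 43.6% to 48.0% of all probe sets on the KO/ERRb-wt and WT/mock arrays and above 49.9% to 58.1% on the KO/mock arrays, so the limit given for the WT/mock level of Sptlc3 holds here too.

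Sgpp1, the other phosphatase, read 7.14 to 7.35 over the 12 arrays, with differences of 0.05 to 0.10 and all groups overlapping. Its second probe set read 3.27 to 3.69 and overlapped between groups too. Sgpl1, the lyase, read 8.97 to 9.17, and its largest difference was 0.07 ± 0.06 for KO/ERRb-wt minus KO/mock (SE; limma, adjusted p = 0.578).

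Counted over the 8 members other than Sptlc3 and Sgpp2, 0 were called between KO/mock and WT/mock, where 5.58% of all genes were called, and 2, Cers6 and Sphk2, had an unadjusted limma p under 0.05, as had 20.3% of all genes. Between KO/ERRb-wt and KO/mock 0 of 8 were called, against 4.40% of all genes, and 0 had an unadjusted p under 0.05, against 21.7% of all genes. Between KO/ERRb-wt and WT/mock 2 of 8 were called, Cers6 and Sphk2, both higher, against 20.8% of all genes in either direction and 8.82% higher. There 3 of the 8, Sptlc1 besides those, had an unadjusted p under 0.05, as had 34.3% of all genes. With so few genes these shares do not set the members apart from the background. The median difference of these 8 was 0.06 between KO/mock and WT/mock, 0.05 between KO/ERRb-wt and KO/mock and 0.10 between KO/ERRb-wt and WT/mock, beside 0.00, 0.02 and 0.03 over all genes. Between clones of one label 0 of the 8 members were called (limma with clones as groups, adjusted p of 0.787 or more, and 0 at an unadjusted p under 0.05), and of all 22180 genes 0, 2 and 0 were called between clones of KO/ERRb-wt, KO/mock and WT/mock, with 1134, 1529 and 1640 at an unadjusted p under 0.05.

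**Figure D3:**
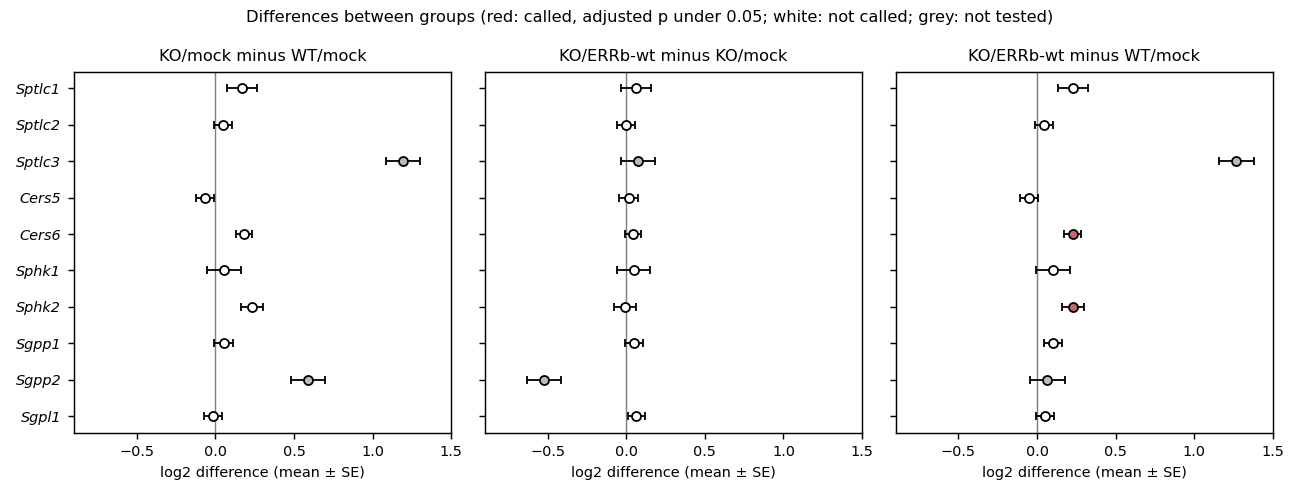
Log2 difference of each member in the 3 comparisons (points, with bars of 1 SE from the fit over all probe sets; red points were called, white ones were not, and the grey points of Sptlc3 and Sgpp2 were not tested). Sptlc3 stands at 1.19 and 1.27 against WT/mock and Sgpp2 at 0.59 and -0.52 on either side of KO/mock, while the other 8 members lie between -0.06 and 0.23.

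For both leading genes, the genes with the most similar pattern were sought among 18220 protein-coding genes. Likeness was the root mean square difference over the 12 arrays after each gene was centred on its own mean. For Sptlc3, whose own values had a root mean square of 0.60 about their mean, the nearest were Tns4 at 0.19, Lamb1 at 0.21 and Elmo1 at 0.22. Lamb1, a laminin chain of basement membranes, read 8.28 to 8.60 on KO/ERRb-wt arrays, 8.10 to 8.22 on KO/mock arrays and 7.14 to 7.46 on WT/mock arrays. Tns4, a focal adhesion protein gene, averaged 6.64, 6.28 and 5.42 in that order, and Elmo1, a regulator of Rac signalling, 9.80, 9.59 and 8.67. For Sgpp2, with a root mean square of 0.30, the nearest were the cyclin-like gene Ccnjl at 0.10, the myosin light chain gene Myl6b at 0.11 and the transcription factor gene Stat4 at 0.12. Ccnjl averaged 7.64 on KO/ERRb-wt arrays, 8.06 on KO/mock arrays and 7.52 on WT/mock arrays. Stat4 averaged 5.34, 5.82 and 5.37. The likeness is over arrays of the same 6 clones and has no test.

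**Figure D4:**
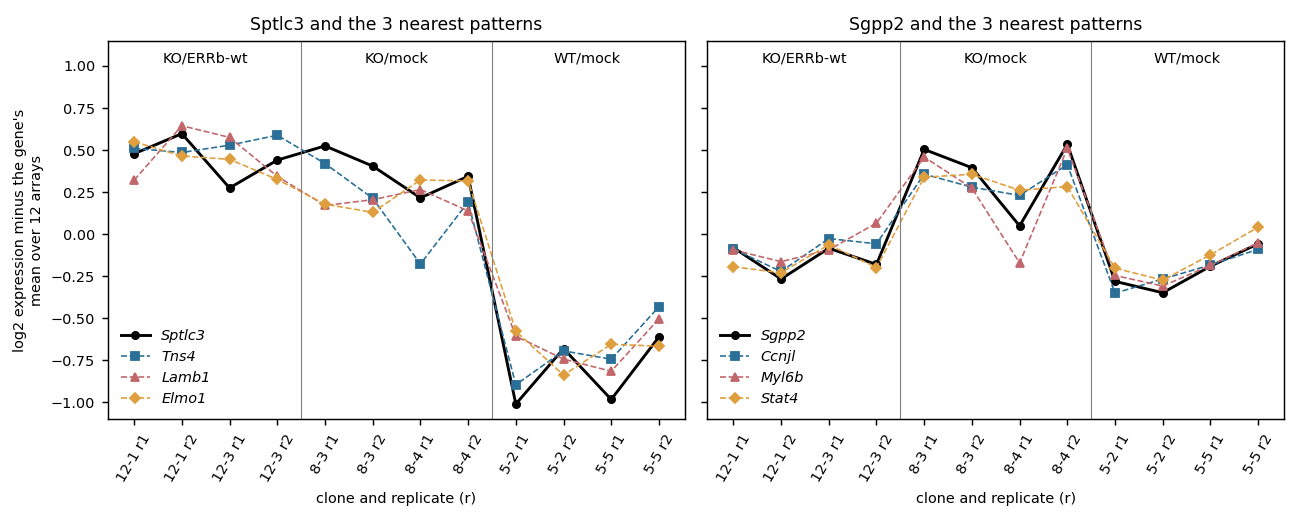
Log2 expression centred on each gene's mean over the 12 arrays, for Sptlc3 (left) and Sgpp2 (right) with the 3 genes of most similar pattern; arrays are ordered by group, clone and replicate. Tns4, Lamb1 and Elmo1 are low on the WT/mock arrays with Sptlc3, and Ccnjl, Myl6b and Stat4 are high on the KO/mock arrays with Sgpp2, apart from Myl6b on clone 8-4 replicate 1.

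Around these enzymes, 61 of 66 other listed sphingolipid genes were analysed, each by a probe set of its own. Cers1, Sptssa and Glb1 share theirs with other genes and were not used here. Between KO/mock and WT/mock 9 of the 61 were called, or 14.8%, 1 higher and 8 lower, beside 2.11% of all genes higher and 3.47% lower. Since dim genes are seldom called, the share was also taken at a mean log2 value of at least 6, where 8 of 37 listed genes were called beside 10.8% of all genes of that level. The list's median difference was -0.09, beside 0.00 over all genes. Samd8, the ceramide phosphoethanolamine synthase gene, fell by 0.57 ± 0.08 (SE; limma, adjusted p = 0.00152). B4galnt1, the ganglioside GM2 synthase gene, fell by 0.66 ± 0.11 (adjusted p = 0.00732) and Hexa, a subunit of the lysosomal hexosaminidase that degrades GM2, by 0.67 ± 0.12 (adjusted p = 0.00752). On KO/ERRb-wt arrays Hexa was not called, at 0.47 ± 0.12 against KO/mock (limma, adjusted p = 0.0501) and -0.19 ± 0.12 against WT/mock (limma, adjusted p = 0.319). Asah1, the acid ceramidase gene, fell by 0.40 ± 0.09, and Aldh3a2, which oxidises the aldehyde left by S1P lyase, by 0.42 ± 0.09. The gene that rose was Smpdl3b, a relative of acid sphingomyelinase, at 0.50 ± 0.11 (limma, adjusted p = 0.0288).

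By step, 3 of 10 genes of glycosphingolipid breakdown fell, 2 of 13 of glycosphingolipid synthesis and transport, 1 of 5 ceramidases, 1 of 11 of S1P transport, receptors and onward metabolism and 0 of 10 of de novo synthesis, beside 3.47% of all genes lower. Of 12 sphingomyelin and ceramide 1-phosphate genes 1 fell and 1 rose. These shares are not matched for level, and of all genes with a mean of at least 6, 10.8% were called in either direction. Clone averages left 0 calls in the list. With either array of WT/mock clone 5-2 left out, or replicate 2 of KO/mock clone 8-4, 3 calls were left, and 4 without replicate 1 of that clone. The calls of Aldh3a2, Asah1 and Smpdl3b were among those that ended when single arrays were left out, 4 arrays for the first and 5 for each of the others, and that of Aldh3a2 ended when its probe sets were averaged. The calls of Samd8, B4galnt1 and Hexa held without any single array. That of B4galnt1 ended without clone 8-4 (adjusted p = 0.0986), and that of Hexa without clone 8-4 (0.0806) or clone 5-2 (0.116), while that of Samd8 held without any clone. B4galnt1 is low, averaging 5.13 on KO/mock arrays and 5.79 on WT/mock arrays, so it has no result with dim probe sets left out.

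Between KO/ERRb-wt and KO/mock 4 of the 61 were called, or 6.56%, 1 higher and 3 lower, beside 1.24% of all genes higher and 3.17% lower. At a mean of at least 6 it was 4 of 37, beside 8.30%. The 3 that fell belong to glycosphingolipid synthesis and transport. B4galt5, a lactosylceramide synthase gene, averaged 8.82 on KO/ERRb-wt arrays and 9.38 on KO/mock arrays, a difference of -0.57 ± 0.08 (SE; limma, adjusted p = 0.0034). Its paralogue B4galt6 fell by 0.26 ± 0.06 (adjusted p = 0.0413) and Plekha8, a glucosylceramide transfer protein gene, by 0.29 ± 0.06 (adjusted p = 0.02). Cers4, a further ceramide synthase gene, rose by 0.30 ± 0.07 (limma, adjusted p = 0.0497). Leaving out single arrays left 1 or 2 calls for 8 of the arrays: 1 without replicate 2 of KO/ERRb-wt clone 12-3 or replicate 1 of KO/mock clone 8-3, and 2 without either array of KO/ERRb-wt clone 12-1, replicate 1 of clone 12-3, replicate 2 of KO/mock clones 8-3 and 8-4, or replicate 1 of WT/mock clone 5-2. The call of B4galt5 held without any single array and ended without 1 clone and on clone averages. That of Plekha8 ended without any of 3 arrays and when its probe sets were averaged, that of B4galt6 without any of 8 and that of Cers4 without any of the 12.

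Between KO/ERRb-wt and WT/mock 26 of the 61 were called, or 42.6%, 4 higher and 22 lower, beside 8.82% of all genes higher and 12.0% lower. At a mean of at least 6 it was 21 of 37, beside 37.8% of all genes of that level. The list's median difference was -0.13, beside 0.03 over all genes. Glycosphingolipid synthesis and transport had 8 of 13 genes lower and 1 higher, glycosphingolipid breakdown 5 of 10 lower, and S1P transport, receptors and onward metabolism 4 of 11 lower. De novo synthesis had 2 of 10 lower, the ceramidases 2 of 5 lower and 1 higher, and the sphingomyelin and ceramide 1-phosphate genes 1 of 12 lower and 2 higher. B4galt5 fell by 0.68 ± 0.08 (SE; limma, adjusted p = 0.000128), B4galt6 by 0.50 ± 0.06 and Samd8 by 0.64 ± 0.08. Gla, the lysosomal alpha-galactosidase gene, fell by 0.52 ± 0.08 and Asah1 by 0.59 ± 0.09, and Smpdl3b rose by 0.76 ± 0.11. The calls of these 6 genes held under every alternative run, with adjusted p up to 0.0463. The other 3 that rose, named after their values were seen, were Sgms1, Asah2 and St8sia1. How their calls fare under the alternatives is not given here. Larger differences outside the 6 named genes were called lower, among them -0.77 for B4galnt1, -0.72 for Psap and -0.72 for Plpp2. The sphingomyelin synthase gene Sgms1 rose by 0.33 ± 0.07 (limma, adjusted p = 0.00551). Asah2, the neutral ceramidase gene, rose by 0.34 ± 0.10 (limma, adjusted p = 0.0491) from a low WT/mock mean of 4.50. The ganglioside GD3 synthase gene St8sia1 rose by 0.61 ± 0.17 (limma, adjusted p = 0.0306). St8sia1 read 4.95 and 4.66 on WT/mock clone 5-2 but 5.53 and 5.31 on clone 5-5. Its lowest KO/ERRb-wt array stood only 0.04 above the highest WT/mock array. Samd8 is the only listed gene on chromosome 14, and without it, an alternative chosen after seeing the data, 8 of 60 were called between KO/mock and WT/mock and 25 of 60 here.

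**Figure D5:**
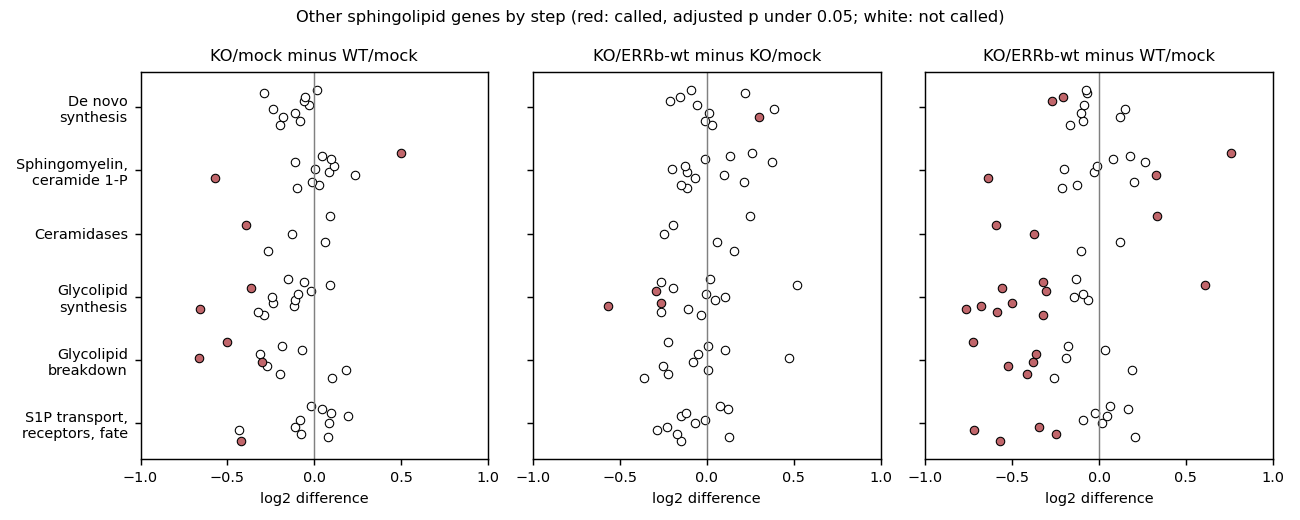
Log2 difference of the 61 other sphingolipid genes by step in the 3 comparisons (red points were called at an adjusted p under 0.05, white ones were not). Called genes lie mostly left of 0, with 8 of 9 lower between KO/mock and WT/mock, 3 of 4 between KO/ERRb-wt and KO/mock and 22 of 26 between KO/ERRb-wt and WT/mock. Over all genes, 769 of 1238, 703 of 977 and 2660 of 4617 called genes were lower in the same order of comparisons.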

How the data were processed

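The table the authors deposited held log2 values for 12 arrays and 41345 probe sets, of which 802 repeat the values of another. The submitters' processing notes name RMA and Affymetrix Expression Console. RMA brings all arrays to a common distribution, so a change common to most genes would not show. Array medians lay between 5.00 and 5.07. The number of arrays and clones limits the precision. Symbols came from the platform annotation, which can be old, and chromosomes and promoters from RefSeq, GRCm38.p6.

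A linear model with a mean per group was fitted to the 12 arrays by limma 3.58.1 under R 4.3.3. Clone was a random block through statmod 1.5.0, at an estimated correlation of 0.0286 between arrays of one clone. At that value such arrays count almost as separate samples. Without probe sets of a mean under 6 the estimate was 0.172. On clone averages 3 of 22180 genes were called between KO/mock and WT/mock, beside 1238 in the main fit. Two-sided p-values were adjusted by Benjamini-Hochberg over all probe sets, and genes were called at an adjusted p under 0.05. The titles number both arrays per clone as biological replicates without naming separate cultures, so p-values measure the spread between these arrays. The procedure was tested on simulated data with independent noise on each array and no clone effect. That test cannot check how the fit handles differences between clones.

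The members, the list of 66 genes and the markers were chosen with earlier results of these data known. Of listed genes, up to 6 called ones per comparison with the smallest adjusted p were named, and 3 of most similar pattern for Sptlc3 and Sgpp2. Alternatives were no clone block, clone averages, a replicate block, only the 2 groups compared, quantile normalization, median centring, dim probe sets (mean under 6) left out, array weights, a trended robust prior, probe sets averaged per gene, and leaving out each array and clone.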

Additional observations from a re-analysis of the deposited data

How the results depend on the processing

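Sptlc3 kept its sign against WT/mock in every alternative, at 1.10 to 1.29 for KO/mock and 1.18 to 1.36 for KO/ERRb-wt, and Sgpp2 stayed at 0.494 to 0.697 for KO/mock minus WT/mock and -0.63 to -0.444 for KO/ERRb-wt minus KO/mock. Of the 8 other members, 7 remained with dim probe sets left out, and 2 of these were called between KO/mock and WT/mock. Beside them 1809 of 9761 genes were called, against 1057 of 9761 at that level in the main fit. With a trended robust prior 2 of the 8 were called, while calls among all genes also rose above the 1238 of the main fit. Both settings thus raised calls over all genes, and these counts do not set the members apart. Without single arrays 0 to 1 of the 8 were called. Between KO/ERRb-wt and WT/mock the 2 calls became 0 on clone averages and without clone 12-1 or 5-2, and 1 with median centring, with only the 2 groups compared and without clone 12-3, 8-3 or 8-4, and 1 to 2 without single arrays. Between KO/ERRb-wt and KO/mock 0 were called in every alternative. Of the 61 listed genes, the 9 calls between KO/mock and WT/mock became 0 on clone averages and 4 with only the 2 groups compared. They became 2 without clone 5-2, 1 without clone 8-4, and 3 to 11 without single arrays. With dim probe sets left out, 14 of the 37 listed genes that remained were called, beside 1809 of 9761 genes. The 4 calls between KO/ERRb-wt and KO/mock became 0 on clone averages and 1 with only the 2 groups compared. They became 2 without clone 12-1 or 12-3, 1 without clone 8-3, and 1 to 3 without single arrays. With dim probe sets left out, 7 of the 37 were called in that comparison. The 26 calls between KO/ERRb-wt and WT/mock became 10 on clone averages, 16 without clone 12-1, 16 without clone 12-3 and 15 without clone 5-2, and 19 to 26 without single arrays. Over all alternatives, calls among all genes ran from 0 to 1545 between KO/ERRb-wt and KO/mock. Between KO/ERRb-wt and WT/mock they ran from 1501 to 5091. With the replicate block 2 of those 4 calls between KO/ERRb-wt and KO/mock were left. Same-numbered arrays of different clones deviated together only weakly over all probe sets, with correlations of -0.0433 to 0.141. Dim probe sets weigh in these correlations, so they cannot show whether same-numbered arrays share a batch. Small differences that were not called or not tested changed sign. For KO/mock minus WT/mock, Sgpp1 was -0.0161 without clone 8-3, and Sgpl1 was 0.00732 without clone 5-5 and -0.0384 to 0.00611 without single arrays. For KO/ERRb-wt minus KO/mock, Sptlc2 was 0.0137 with quantile normalization, 0.0183 without clone 12-1, 0.0113 without clone 8-3 and -0.035 to 0.017 without single arrays. In the same comparison Sphk2 was 0.0458 with quantile normalization, 0.017 without clone 12-1, 0.0169 without clone 8-3 and -0.0409 to 0.0125 without single arrays. Sptlc3 was -0.0147 without clone 12-1 and -0.017 without clone 8-4, Cers5 -0.0125 with median centring, and Sgpp1 -0.0157 with the mean of its probe sets and -0.0206 without clone 8-4. Without single arrays Sptlc1 was -0.0149 to 0.103 and Sphk1 -0.0303 to 0.118. For KO/ERRb-wt minus WT/mock, Sgpp2 was -0.0287 without clone 5-2 and Sgpl1 -0.00716 without clone 12-3. The cause of these changes was not tested, beyond fewer arrays or genes in the fit where some were left out. Of the members, Sptlc3, Sgpp2 and Sphk1 average under 6 and drop out with the dim probe sets, as do the listed genes B4galnt1, Asah2 and St8sia1.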
